A study of Mus musculus with 18 samples.

Results

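Gm6356, Gm3373, Gm10340, Gm3411, Gm3739 and Gm10704 are 6 predicted mouse genes, of 54532 genes in the count table, that were chosen from earlier results of these data because their counts were far higher in double mutants than in controls. The choice rests on that contrast, so its values are given below as a description with no test. RNA was sequenced from frontal cortex of newborn mice (postnatal day 0) in control pups and in pups labelled as double mutants of Rxrg and Rarb, called dKO here. Orbital, medial and dorsal tissue was taken, giving 18 libraries in 6 groups of 3. The labels give neither the alleles nor the strain, sex, litter or number of animals, and they name no treatment. Title prefixes and index sequences place them in 3 sets, called A, B and C (replicates 1, 2 and 3), each with 3 control and 3 dKO libraries.

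RARB and RXRG are nuclear receptors that bind retinoids and regulate transcription from the DNA they bind as paired proteins. Proximal mouse chromosome 14 carries a large rodent family of recent tandem gene copies, many of which bear only a "Gm" (predicted gene) name. A processed pseudogene is a copy of a spliced messenger RNA that was inserted elsewhere in the genome. Rtraf, the parent of Gm10704 by sequence, encodes an RNA-binding protein of the transfer RNA ligase complex. Reads from near-identical copies are hard to assign to 1 of them, so the sequences are shown first.

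On GRCm38, 5 of the 6 genes are protein-coding genes of chromosome 14 and lie on the same side of Rarb, which spans chr14:16430839-16819156 on the minus strand. Gm10340 is at chr14:3133997-3141609 on the plus strand, 13.3 Mb from Rarb. The other four lie on the minus strand. Gm3373 is at chr14:5718336-5741577, 10.7 Mb from Rarb, and Gm3411 at chr14:6259747-6287250, 10.1 Mb from it. Gm6356 is at chr14:6965449-6973818, 9.46 Mb from Rarb, and Gm3739 at chr14:7293648-7315049, 9.12 Mb from it. Gm10704 is a single-exon processed pseudogene at chr3:88576410-88577139 on the minus strand. It lies within Ssr2, a gene of the plus strand that encodes a subunit of the translocon-associated protein complex, and 32.7% of its 730 bases are also exon of Ssr2. The counting ignored strand, so unspliced reads of Ssr2 over the rest of Gm10704 cannot be told apart from reads of Gm10704.

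The 5 chromosome 14 genes belong to a family of 82 protein-coding genes on that chromosome, defined here as genes with a transcript that matched 1 of the 5 at 80% identity or more over 50% or more of its length. Of these, 80 lie between 3030002 and 7595592 on chromosome 14, a stretch of 4.57 Mb that ends 8.84 Mb before Rarb. The remaining 2, Gm2237 and Gm5458, lie 2.75 Mb beyond Rarb on its other side. No gene of another chromosome met the definition, and a minimum of 90% identity gave the same number of family genes, 82. The best match of each of the 77 relatives to a listed gene had 92.7% to 99.95% identity. Gm10704 had a family of its own, made of Rtraf on chromosome 14 (98.6% identity, 2.99 Mb beyond Rarb) and Gm6012.

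The stretches below show how a listed gene can or cannot be told from its closest copy. The closest copy is the gene whose transcript had the highest blastn score against the longest transcript of the listed gene. It need not be the closest in coding bases. Each pair is 120 bases of coding sequence (for Gm10704, the stretch that matches coding sequence of Rtraf) from GENCODE M21 transcripts, written 5′ to 3′ on the strand of the gene, and capitals mark the bases that differ within the pair. They were taken where the 2 sequences differ most.
Gm10704: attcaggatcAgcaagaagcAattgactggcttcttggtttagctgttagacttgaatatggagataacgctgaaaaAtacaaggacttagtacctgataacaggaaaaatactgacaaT
Rtraf: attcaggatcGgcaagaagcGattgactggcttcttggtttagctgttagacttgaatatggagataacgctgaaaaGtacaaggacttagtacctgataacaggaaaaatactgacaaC
Gm6356: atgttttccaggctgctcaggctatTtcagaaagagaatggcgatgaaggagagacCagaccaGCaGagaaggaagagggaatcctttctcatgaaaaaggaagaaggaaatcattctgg
Gm3542: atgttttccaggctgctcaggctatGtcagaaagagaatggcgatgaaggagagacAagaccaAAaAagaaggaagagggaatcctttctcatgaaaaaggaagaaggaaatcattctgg
Gm10340: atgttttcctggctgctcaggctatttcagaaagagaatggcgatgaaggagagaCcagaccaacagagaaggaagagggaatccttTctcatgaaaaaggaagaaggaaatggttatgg
Gm3005: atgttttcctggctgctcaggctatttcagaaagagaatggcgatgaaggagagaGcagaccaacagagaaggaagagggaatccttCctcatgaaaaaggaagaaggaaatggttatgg
Gm3739: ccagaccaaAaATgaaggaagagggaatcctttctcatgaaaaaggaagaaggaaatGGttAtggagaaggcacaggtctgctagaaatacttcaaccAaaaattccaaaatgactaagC
Gm10406: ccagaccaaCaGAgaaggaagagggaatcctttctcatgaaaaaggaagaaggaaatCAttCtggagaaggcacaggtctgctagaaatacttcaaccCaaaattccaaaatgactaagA

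Gm10704 differs from Rtraf at 10 of 730 bases. Gm6356 differs from Gm3542 at 11 of 566 aligned coding bases, and Gm3739 from Gm10406 at 9 of 618. Gm10340 and Gm3005 differ at 2 of 618 aligned coding bases, and Gm3373 and its closest copy, Gm3500, have the same 618 coding bases. The printed stretch starts at base 1 of the Gm10340 coding sequence and at base 34 of that of Gm3005. Gm3411 and 2610042L04Rik differ at 8 of 453. Among themselves, the 5 listed coding sequences were 93.5% to 99.1% identical, and Gm6356 was in every pair under 98%.

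The part of a transcript that can be told from the transcripts of all other genes also differed between the 6. In Gm6356, 79.3% of the 100-base windows of its annotated transcripts occur in no annotated transcript of another gene, and in Gm10704 78.4%. Introns did not enter this comparison, so for Gm10704 the share does not cover unspliced reads of Ssr2. The share was 41.8% in Gm3739, 29.2% in Gm3411, 18.6% in Gm10340 and 5.34% in Gm3373. The counts of Gm3373 and Gm10340 are therefore the least certain as to which copy they come from, and a level per length understates genes with few such windows.

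Promoter sequence (300 bases around a RefSeq start site, GRCm38.p6) was held for 3 of the 6 genes, with 5 start sites. The letters AGGTCA, on either strand, occurred in 1 of these 5 promoters, a start site of Gm3373, in 18 of 72 promoters of the relatives and in 16.3% of 32851 promoters in all. A direct repeat of AGGTCA spaced by 5 bases occurred in 0 of the 5 and in 3 promoters in all.

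Library totals were 28957325 to 93093398 fragments, and 3 fragments correspond to 0.0322 to 0.104 CPM (counts per 1000000 fragments) in a control or dKO library. Set A was the deepest. Cortical neuron markers (6 genes) were present in every library, at a summed 1442 to 2750 CPM in controls and 2000 to 2472 CPM in dKO libraries. The summed levels of germ cell, meninges, microglia, vessel, red cell and striatum markers also overlapped between the genotypes. The targeted genes were lower in the libraries labelled dKO mainly in sets B and C. Mean Rarb in dKO libraries was 75.9% of the control mean in set A, 28.2% in set B and 34.8% in set C. For Rxrg it was 84.3%, 7.98% and 14.4%, and the set A orbital library labelled dKO (2.90 CPM) was above its control (2.35 CPM). In sets A, B and C the Rxrg mean was 2.015, 19.3 and 3.41 CPM in controls and 1.70, 1.54 and 0.492 CPM in dKO. The low share in set B thus rests on high controls, as the dKO means of sets A and B were close. Neither gene passed in edgeR with regions summed (Rarb, log2 fold change -1.33, SE 0.313, adjusted p = 0.365; Rxrg, -2.50, SE 0.887, adjusted p = 0.479). Xist, which is expressed in female tissue, was at 9.45 CPM or more in dKO tissue of sets A and C, and at 0.155 CPM or less in set B dKO tissue and all controls. Ddx3y of the Y chromosome was at 0.203 CPM or less in the former and 58.3 CPM or more in the latter, so these levels separated the genotypes in sets A and C and not in set B.

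Gm6356, a member with 5 exons and 188 codons, had the largest contrast between the genotypes. In orbital tissue its level was 0, 0.0324 and 0 CPM in the controls of sets A, B and C and 15.6, 34.6 and 55.2 CPM in the dKO libraries. In medial tissue it was 0 CPM in all 3 controls and 19.2, 39.9 and 41.0 CPM in dKO. In dorsal tissue it was 0.0283, 0.0345 and 0 CPM in controls and 16.5, 34.5 and 43.0 CPM in dKO. The 9 controls held 4 fragments of this gene in all and the 9 dKO libraries 10956, with at least 821 in each. The pooled ratio was 3381 (exact 95% interval 1320 to 12411, which covers counting error only). In medial tissue, where the control count was 0, the level was at least 1652-fold higher, taking 3 fragments over the controls as the limit.

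Gm10704, the Rtraf copy on chromosome 3, was low but not at 0 in controls. Its level was 0.098, 0.227 and 0.213 CPM in the orbital controls of sets A, B and C and 3.88, 7.49 and 8.43 CPM in orbital dKO libraries. In medial tissue the controls were at 0.140, 0.0861 and 0.0310 CPM and the dKO libraries at 4.11, 12.0 and 7.80 CPM. In dorsal tissue the controls were at 0.142, 0.207 and 0.0945 CPM and the dKO libraries at 3.70, 8.66 and 8.29 CPM. The groups did not overlap, and the pooled ratio was 49.5 (interval 38.2 to 65.2). Rtraf itself was at 83.4 to 119 CPM in controls and 89.0 to 119 CPM in dKO libraries and passed the test in no region (summed over regions, log2 fold change -0.14, SE 0.135, adjusted p = 0.813 in edgeR's quasi-likelihood test). Gm10704 fragments were 0.0335% to 0.208% of Rtraf fragments in controls, 3.80% to 4.01% in the set A dKO libraries and 8.41% to 10% in those of sets B and C. Ssr2, which overlaps Gm10704, was at 116 to 235 CPM in controls and 143 to 201 CPM in dKO libraries and did not pass either (summed, 0.06, SE 0.180, adjusted p = 0.964).

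Gm3373 and Gm10340 were rare in dKO libraries and nearly absent in controls. Gm3373 ranged from 0 to 0.0974 CPM in the 9 controls (median 0.0283, 14 fragments in all) and from 0.475 to 3.72 CPM in the 9 dKO libraries (median 1.6, 570 fragments). Its pooled ratio was 50.3 (interval 29.7 to 92.5). Gm10340 ranged from 0 to 0.0315 CPM in controls (median 0, 3 fragments in all) and from 0.390 to 1.72 CPM in dKO libraries (median 1.32, 400 fragments). With so few control fragments its ratio of 165 has a wide counting interval, 55.9 to 801. Each dKO library was above every control for both genes, with 28 to 110 fragments of Gm3373 and 23 to 55 of Gm10340 per dKO library.

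Gm3411 and Gm3739 did not bear out a description as genes expressed in double mutants alone. Gm3411 was present in all controls, at 0.518 to 1.68 CPM (median 1.30, 15 to 128 fragments per library), and at 3.83 to 13.4 CPM in dKO libraries (median 8.95). Gm3739 was at 2.87 to 12.3 CPM in controls (median 6.36, 83 to 594 fragments) and at 15.5 to 50.6 CPM in dKO libraries (median 34.2). The pooled ratios were 6.12 (interval 5.57 to 6.72) and 4.70 (4.51 to 4.91). The groups did not overlap for either gene, but the gap was small for Gm3739, whose highest control, orbital set C, was at 12.3 CPM and whose lowest dKO library, orbital set A, was at 15.5 CPM.

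**Figure D1:**
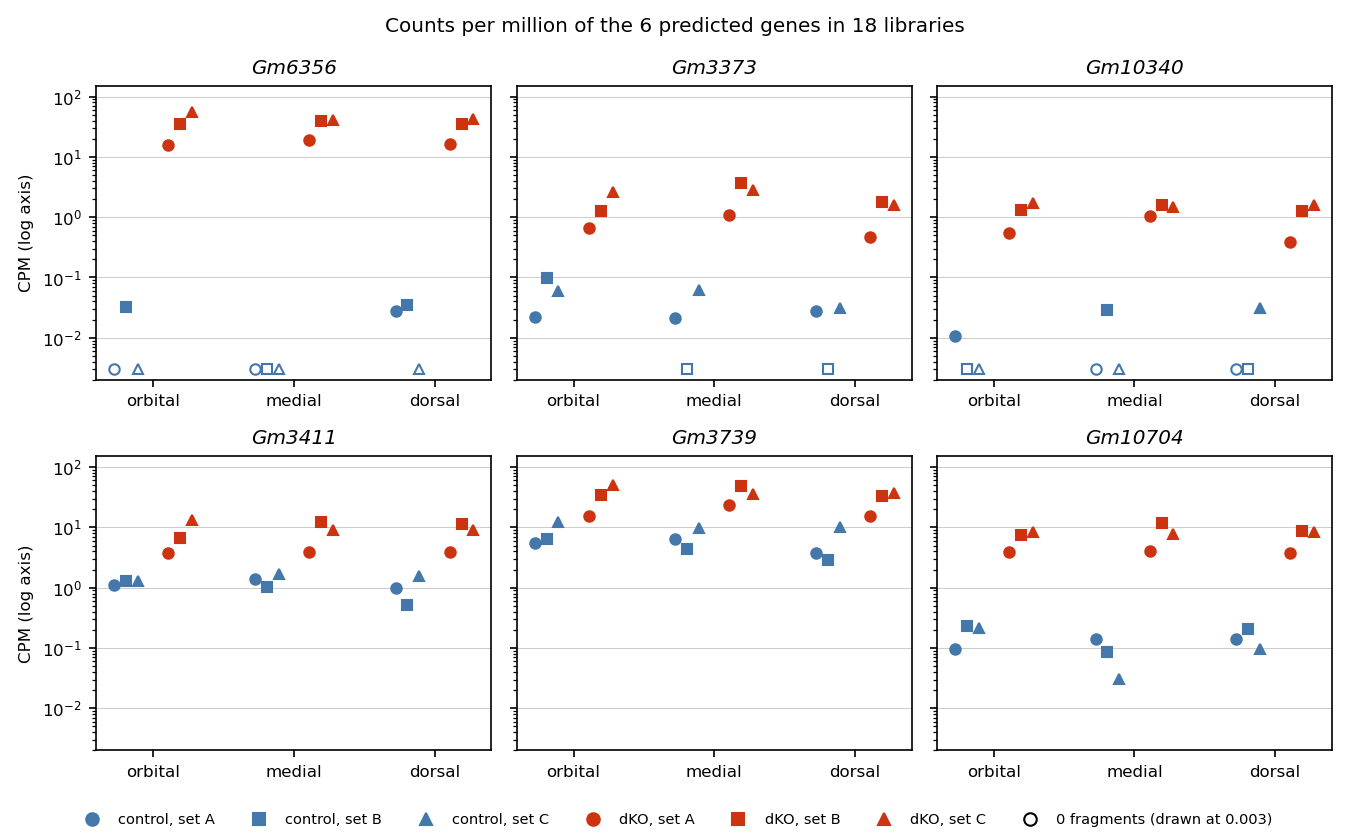
Each panel plots 1 gene, with CPM on a log axis against region, blue for control and red for dKO, and a symbol for each set. Open symbols are libraries with 0 fragments, drawn at 0.003 CPM; for all 6 genes every red symbol lies above every blue one, and the blue symbols of Gm3411 (0.518 CPM or more) and Gm3739 (2.87 CPM or more) lie well above those of the other genes.

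The plot of CPM by library shows the 6 genes on 1 scale. All 6 passed the filter on low counts. All 9 dKO libraries were above all 9 controls for 6 of 6 genes, where 28 of the 18730 genes tested (0.149%) were so placed; as the genes were chosen for this, the share carries no further information.

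Per kilobase of exon, the dKO level was highest in Gm6356 (18.9 ± 7.73 CPM per kb, SD, n = 9 libraries) and Gm3739 (16.3 ± 6.34), then Gm10704 (9.79 ± 3.77) and Gm3411 (4.08 ± 1.87). Gm3373 (0.872 ± 0.529) and Gm10340 (0.688 ± 0.265) were lowest. Gm6356 and Gm3739 differed by less than the spread over libraries, as did Gm3373 and Gm10340. The other neighbours in the order were farther apart in their means, with overlapping ranges between Gm3739 (7.69 to 25.2) and Gm10704 (5.07 to 16.4) and between Gm10704 and Gm3411 (1.92 to 6.72). Within each single dKO library, however, Gm3739 was above Gm10704 and Gm10704 above Gm3411. In controls the order was another: Gm3739 was highest at 3.40 CPM per kb and Gm3411 next at 0.608, ahead of Gm10704 at 0.188 and of Gm3373, Gm6356 and Gm10340 at 0.0176, 0.00603 and 0.00448.

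No difference between regions was detected for the 6 genes in dKO tissue, a comparison that did not enter their choice. In the fit with each row of 3 libraries as a block, 0 of 6 genes passed the threshold for orbital minus dorsal (0.486% of all genes did), for medial minus dorsal (2.09%) or for medial minus orbital (0.016%). At an unadjusted p under 0.05 the count was also 0 in each, the lowest unadjusted p being 0.0727. By the adjusted threshold, none of the 6 passed in the 11 alternatives either, DESeq2 among them. Gm3373 had the largest estimate, medial over dorsal (0.95 on the log2 scale, SE 0.489, adjusted p = 0.332), with means of 2.52 and 1.29 CPM. Gm6356 had the best measured ones, 0.05 (SE 0.189) for orbital minus dorsal and 0.06 (SE 0.189) for medial minus dorsal. These estimates do not show that the genes were at the same level in the 3 regions, only that no difference passed at this spread.

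The dKO levels differed more clearly by set than by region. The set A dKO libraries held the lowest levels for all 6 genes, with no overlap with the dKO libraries of sets B and C. Of all genes tested, 7.23% were so placed, and 15.3% had the set A dKO libraries above the others. For Gm6356 the mean over regions was 17.1 ± 1.89 CPM in set A, 36.4 ± 3.10 in set B and 46.4 ± 7.70 in set C (SD, n = 3 libraries each). For Gm10704 it was 3.90 ± 0.206, 9.37 ± 2.32 and 8.17 ± 0.335 CPM.

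As a share of the mean of sets B and C, set A was at 41.3% for Gm6356, 32.0% for Gm3373, 44.6% for Gm10340, 38.1% for Gm3411, 45.6% for Gm3739 and 44.4% for Gm10704. The 6 shares thus spanned 32.0% to 45.6%, although Gm10704 is on another chromosome and shares no sequence family with the others. The levels of Rarb, Rxrg, Xist and Ddx3y given above also differed between the dKO rows. For Rxrg, the dKO means of sets A and B were close and that of set C was lower. The part of these genes in the set difference was not tested. Each set has 1 dKO row, so no test of the sets was made, and set cannot be told apart from title prefix, depth or row.

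**Figure D2:**
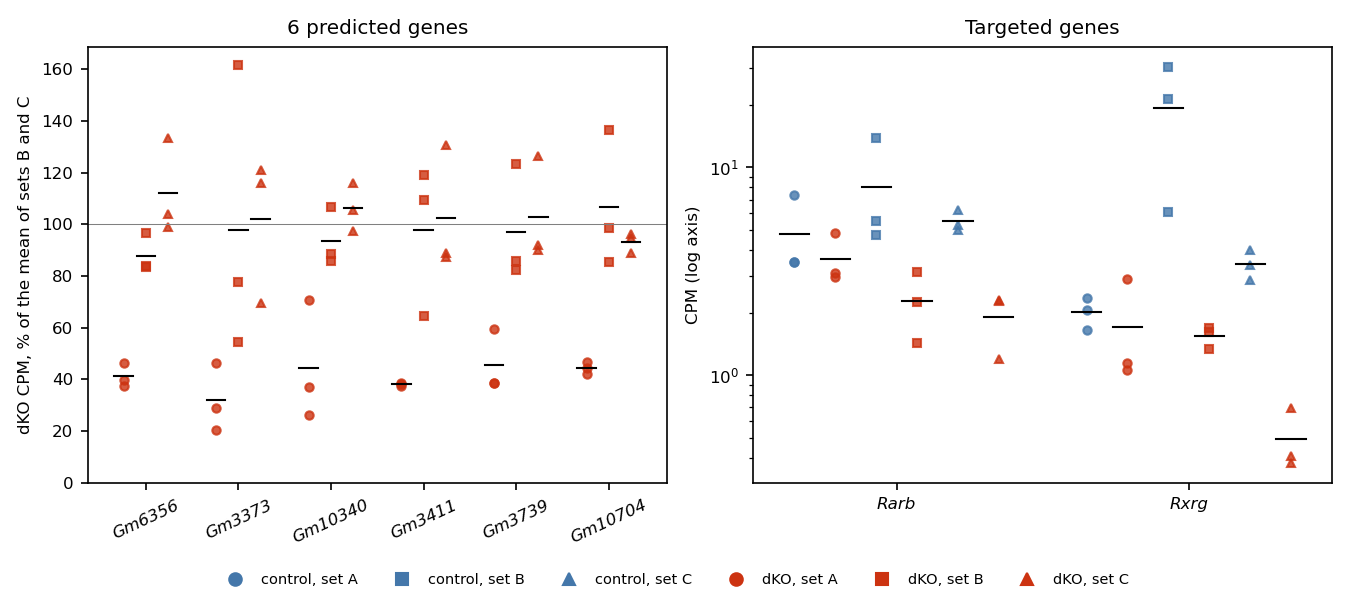
Left, dKO CPM of each gene as a percentage of the mean of sets B and C; right, CPM of Rarb and Rxrg on a log axis in control (blue) and dKO (red) libraries; points are the 3 regions, symbols the sets and bars their means. The set A means of the 6 genes lie between 32.0% and 45.6%, and in set A the control and dKO points of Rarb and Rxrg lie close together.

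The panel of set means shows this for each library. Within a set the 3 regions varied less for Gm6356 (coefficient of variation 8.53% to 16.6%) than over the 9 dKO libraries (40.8%). For Gm10704 it was 5.28%, 24.8% and 4.09% within sets A, B and C against 38.5% over all 9. For Gm3373, with the smallest share of windows of its own, it was 27.7% to 57.5% within sets against 60.6% over all 9, and Gm10340 varied more within set A (52.0%) than over all 9 (38.5%).

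The 77 relatives are what remains of the family once the 5 copies chosen for high dKO levels are taken out, so their counts are given as a description. Of the 29 relatives that passed the filter, 7 had all 9 dKO libraries below all 9 controls (24.1%, against 0.0908% of all genes) and 0 had them above. Over all 34 family genes tested, the 5 listed ones included, 5 were above and 7 below. The 7 are D830030K20Rik, Gm2956, Gm3005, 2610042L04Rik, Gm8281, Gm3468 and Gm3752, named after their values were seen except for the 3 that the naming rule gave (2610042L04Rik, Gm3468 and Gm3005). In sets B and C alone, 13 relatives were below all controls (44.8%, against 2.17% of all genes) and 2 above (6.9%, against 1.67%).

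Whether relatives passed the test depended on the settings. None of the 29 passed in any region in the edgeR fit used throughout (0.0374%, 2.08% and 0.0214% of all genes were called in orbital, medial and dorsal tissue). With regions summed, 32 relatives were tested and none passed (0.0249% of all genes were called). The median log2 fold change of the relatives was -1.02 in the orbital, -0.51 in the medial tissue and -1.10 in dorsal tissue, where that of all genes was -0.03, 0.00 and -0.01, and 21, 20 and 22 of the 29 were negative. DESeq2 called 11 of the 29 in orbital tissue (2.3% of all genes were called), 9 in medial (5.98%) and 4 in dorsal tissue (0.331%). With regions summed it called 14 of the 32 (1.79%). All were lower in dKO except Gm2237, in medial tissue and with regions summed.

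In edgeR with no filter, 10, 9, 6 and 12 relatives passed in orbital, medial and dorsal tissue and with regions summed (0.35%, 1.62%, 0.0745% and 0.186% of all genes did). Without the control row of set A the counts were 11, 7, 6 and 1 (0.831%, 1.98%, 0.152% and 0.0192%), and without its dKO row 7, 6, 3 and 2 (0.212%, 0.371%, 0.0688% and 0.0243%). With both left out, an alternative added after the data were seen, they were 3, 3, 2 and 1 (0.0377%, 0.102%, 0.027% and 0.0199%). With set as a block, 3 passed in medial tissue (3.53% of all genes did). The relatives called without any set A library were all lower in dKO: Gm3752 in each comparison, 2610042L04Rik in each region and D830030K20Rik in orbital and medial tissue.

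Gm3752, at chr14:7466362-7483762 near Gm3739, held 123 to 522 fragments in each control (3.98 to 11.1 CPM). The set A dKO libraries held 103 to 137 fragments (1.95 to 2.52 CPM), and those of sets B and C 0 to 6 fragments (0 to 0.169 CPM). The 3 levels did not overlap. As a share of the control mean of its own set, its dKO mean was 47.4% in set A, 2.10% in set B and 0.819% in set C.

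Gm3005, whose coding sequence differs from that of Gm10340 at the 2 bases printed above in capitals where the 2 align, went the other way from Gm10340. It was at 1.07 to 4.16 CPM in controls, 0.475 to 0.890 CPM in set A dKO libraries and 0.0580 to 0.157 CPM in those of sets B and C (summed over regions, log2 fold change -3.49, SE 0.749, adjusted p = 0.342 in edgeR). Gm3468 was at 1.91 to 7.38 CPM in controls and 0.203 to 1.32 CPM in dKO libraries (-2.94, SE 0.610, adjusted p = 0.324). 2610042L04Rik, the closest copy of Gm3411 by transcript score but not by coding bases, was at 7.29 to 18.2 CPM in controls. Its dKO level was 4.87 to 7.22 CPM in set A and 0.840 to 1.57 CPM in sets B and C (edgeR, summed, -2.64, SE 0.521, adjusted p = 0.320). Neither the listed genes nor these relatives can be fully separated from their copies by the counted reads, so a shift of reads between copies and a change of transcript level cannot be told apart here.

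The relatives differed among themselves in how the sets were placed. The median dKO level of the 29, as a percentage of the control mean of the same set, was 71.5% in set A, 69.1% in set B and 32.2% in set C. Over all genes tested the median was 108.9%, 99.56% and 98.74%. The set A dKO libraries were above all those of sets B and C in 13 relatives (44.8%, against 15.3% of all genes). They were below all of them in 5 relatives, where 7.23% of all genes were so placed. A dKO mean of 10% or less of the control mean of the same set was found in 0 of 29 relatives in set A, 7 in set B and 11 in set C (0.139%, 0.352% and 0.603% of all genes). The 7 relatives at 10% or less in both B and C (0.0694% of all genes were) were 2610042L04Rik, D830030K20Rik, Gm2956, Gm3005, Gm3248, Gm3488 and Gm3752, and in set A they were at 41.5% to 60.7% of controls. Not every relative was low: Gm2974, Gm3558, Gm2237 and Gm5458 had a dKO mean above the control mean in all 3 sets, 4 of 29 where 19.1% of all genes were. Gm10406, the closest copy of Gm3739 by transcript score, was at 112%, 222% and 93.4%.

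**Figure D3:**
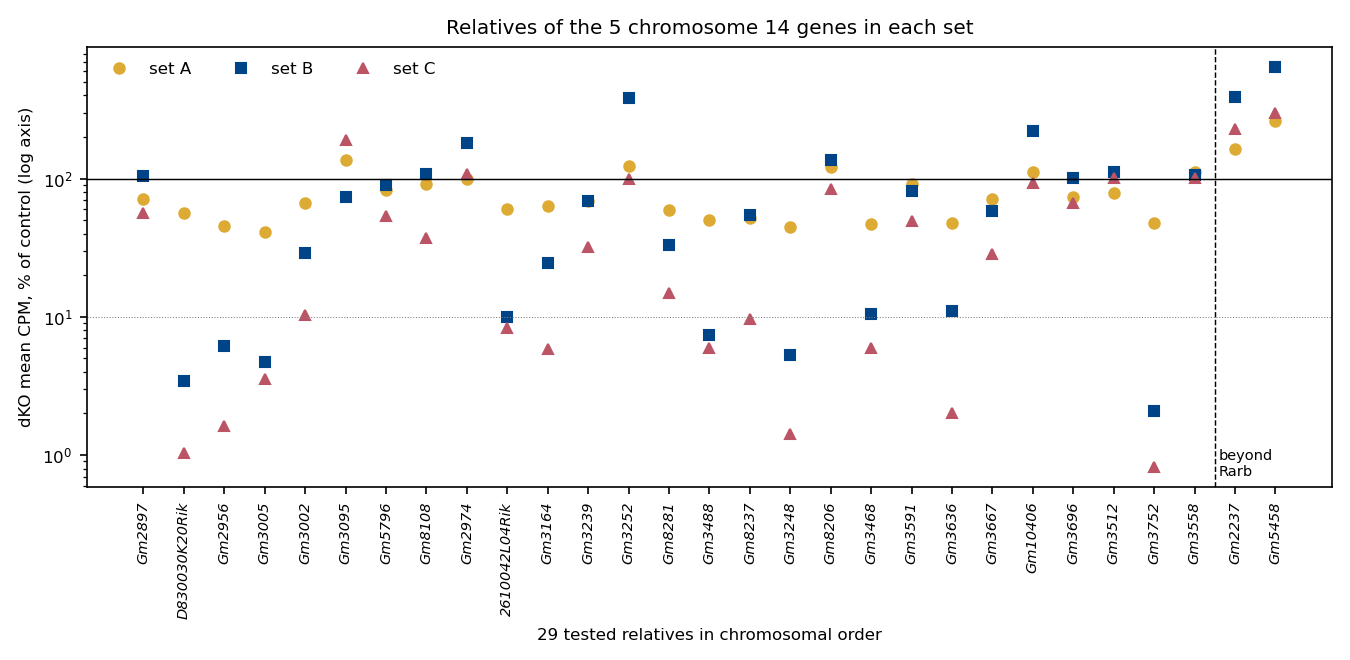
The 29 tested relatives in chromosomal order, with the dKO mean as a percentage of the control mean of the same set on a log axis and a symbol for each set; the dotted line marks 10% and the dashed line the place of Rarb. In 12 relatives the dKO mean is 50% or less of controls in both B and C (1.602% of all genes are so placed), and the 2 relatives beyond Rarb are above 100% in all sets.

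The plot of relatives in chromosomal order has copies with low dKO levels beside copies at or above the control level. The 2 relatives on the far side of Rarb had higher dKO means in each set. In edgeR Gm5458 did not pass, and Gm2237 passed only in medial tissue, with no filter or with set as a block; DESeq2 called Gm2237 in medial tissue and with regions summed. Gm2237 was at 2.73 to 7.37 CPM in controls and 5.06 to 18.9 CPM in dKO libraries, at 165%, 392% and 228% of controls in sets A, B and C (edgeR, summed, 1.17, SE 0.338, adjusted p = 0.398). Gm5458 was at 0 to 0.252 CPM in controls and 0.0573 to 0.752 CPM in dKO libraries (summed, 1.66, SE 0.654, adjusted p = 0.512).

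The naming rule, lowest p for dKO minus control with regions summed, also gave 2 genes of the region too rare for the regional tests. The listed genes were chosen by the same kind of contrast, so a large difference in these 2 follows from the rule and is a description only. The other genes given by the rule, 2610042L04Rik, Gm3468 and Gm3005, were lower in dKO. Gm3453, a relative, had 0 fragments in all 9 controls and 4 to 13 in each dKO library, at least 29.2-fold higher when 3 fragments over the 9 controls are taken as the limit. Gm47749, a processed pseudogene outside the family at chr14:6997191-6997782, had 1 fragment in the controls and 1 to 13 in each dKO library, 62 in all (ratio 76.5, interval 13.2 to 3071). With regions summed, where both entered the test, neither passed (adjusted p = 0.320 and 0.304 in edgeR). With no filter, edgeR called Gm3453 with regions summed and Gm47749 in medial tissue.

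Summed over the family, the 5 listed chromosome 14 genes held 3.42 to 13.7 CPM in the 9 controls (median 7.78) and 36.0 to 124 CPM in the 9 dKO libraries (median 81.7). The 77 relatives together held 60.6 to 168 CPM in controls (median 94.1) and 49.3 to 84.6 CPM in dKO libraries (median 56.8), and these ranges overlap. All 82 genes together held 64.8 to 181 CPM in controls (median 102) and 89.2 to 207 CPM in dKO libraries (median 136), which also overlap. Within set B these totals were separate, at 64.85 to 107.9 CPM in controls and 127.4 to 191.4 CPM in dKO libraries. Within set A (65.35 to 101.8 and 89.22 to 119.3 CPM) and set C (124.1 to 181.4 and 148.8 to 207.1 CPM) they overlapped. The larger part of the 5 listed genes in the dKO totals follows from their choice for high dKO levels. All these sums hold counted reads only. The counting had no option for reads with several alignments, so the sums may leave out reads shared between copies. They are therefore not a full level of the family. Whether they differ through a change in the part of reads that is shared was not tested. Control set C had the highest totals of the controls, with a mean of 156 ± 29.1 CPM against 84.4 ± 18.3 in set A and 82.7 ± 22.5 in set B (SD, n = 3 each).

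**Figure D4:**
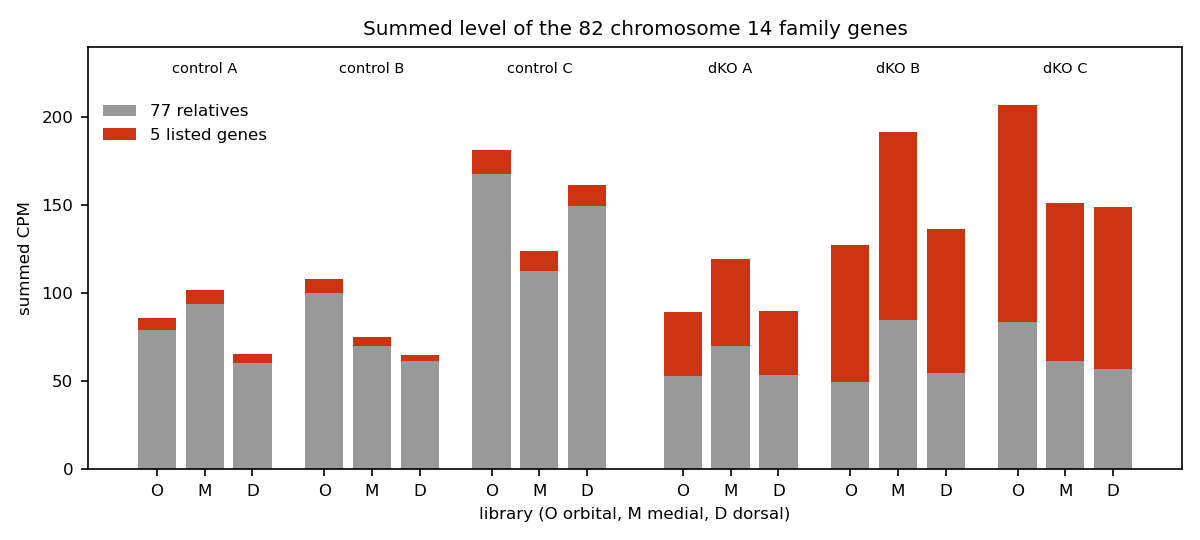
Bars give the summed CPM of the 82 family genes in each of the 18 libraries, grey for the 77 relatives and red for the 5 listed genes. The red part is 3.42 to 13.7 CPM in controls and 36.0 to 124 CPM in dKO libraries. The heights of the whole bars overlap between genotypes over all sets, though not within set B. The bars hold counted reads only and may leave out reads shared between copies.

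Genes of the first 20 Mb of chromosome 14 outside the family are given for comparison. Of 14 other predicted genes tested there, 0 passed in edgeR in any comparison, and their median log2 fold change was 0.08 in orbital and 0.04 in dorsal tissue. Of 30 other genes, 2 passed in edgeR, both lower and in medial tissue (0.897% of all genes were called lower there): Lrrc3b, which encodes a leucine-rich repeat membrane protein (-1.30, SE 0.307, adjusted p = 0.0379), and Thrb, which encodes thyroid hormone receptor beta (-1.16, SE 0.268, adjusted p = 0.0346). Pdhb, a subunit of pyruvate dehydrogenase, had all 9 dKO libraries (118 to 146 CPM) below all controls (158 to 220 CPM) and did not pass in edgeR with all libraries (summed, -0.47, SE 0.137, adjusted p = 0.398). It passed in orbital tissue without the set B controls, and DESeq2 called it in orbital and medial tissue. DESeq2 also called Rarb in orbital and medial tissue and with regions summed, and Lrrc3b, Thrb, Cadps and Fam107a in medial tissue. Of the other predicted genes it called Gm3317, with regions summed. These genes, Rarb apart, were named after their values were seen.

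Next to Rarb itself, 1 of the 3 nearest genes on either side was abundant enough for the regional test. Ngly1, which encodes the cytosolic enzyme that removes N-linked sugars, was at 24.1 to 46.5 CPM in controls and 26.5 to 38.0 CPM in dKO libraries (summed, -0.20, SE 0.192, adjusted p = 0.824). Dlg5, a membrane-associated guanylate kinase gene of the same chromosome, did not pass in any region (summed, 0.01, SE 0.174, adjusted p = 0.994).

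Around Gm10704, 22 of the 44 genes within 300 kb on either side were tested by region and 1 passed in edgeR, in medial tissue, where 2.08% of all genes were called. This was Ubqln4, which encodes a ubiquilin, at 103 to 137 CPM in controls and 64.7 to 112 CPM in dKO libraries (medial, -0.79, SE 0.156, adjusted p = 0.0179). It was named after its values were seen. In set A its dKO libraries were at 89.6 to 112 CPM and in sets B and C at 64.7 to 81.9 CPM.

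Genes whose log2 CPM closely followed the mean of the 6 over the 18 libraries were Gm23823 on chromosome 14 (Pearson r = 0.931), Wdr45 (0.901), Nsun3 (0.900) and Shmt1 (0.899). These values describe libraries that share genotype and set, and no test was made of the correlations. In edgeR, Gm23823 and Wdr45 passed in medial tissue (adjusted p = 0.0289 and 0.0372), and none of these 4 in the other comparisons. Gm23823, which is far from the cluster (chromosome 14, 77540642), was at 0.195 to 0.820 CPM in controls and 1.65 to 3.48 CPM in dKO libraries. Shmt1, a folate-cycle enzyme gene, was at 8.29 to 12.9 CPM and 14.4 to 22 CPM. The ranges of Wdr45 (11.8 to 17.2 and 16.6 to 22.5 CPM) and Nsun3 (24.6 to 35.7 and 31.8 to 52.0 CPM) overlapped between the genotypes. Wdr45 lies on the X chromosome, and Xist and Ddx3y separated the genotypes in sets A and C. The part of sex in its level was not tested.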

How the data were processed

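The deposited table holds raw counts of read pairs per gene. Per the file headers, featureCounts 1.6.2 counted fragments against Ensembl 94 gene models of GRCm38, ignoring strand and with no option for reads with several alignments, and per the submitters' processing notes reads were aligned with STAR 2.6. Of its columns, 18 matched samples and 6 matched none and were not read. Symbols, transcripts and coordinates came from GENCODE M21 (54409 of 54532 identifiers matched).

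CPM are counts per 1000000 of a library's gene total. Tests used edgeR 4.0.16 in R 4.3.3 (TMM factors; filterByExpr settings of 10 for the count and 15 for the total; quasi-likelihood tests; Benjamini-Hochberg adjustment over all genes). Within regions, the model held the means of 6 groups plus a prefix term (18730 genes). Sums over the regions of a row were also tested with that term (20083 genes), as were regions within dKO with the row as a block. Set A left out was an alternative added after seeing the data. The labels do not say that libraries came from separate animals, so p-values measure the spread between these samples, which may be technical. Scripts were tested on simulated data.

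The listed genes and all lists were chosen with earlier results of these data known. Named genes were the 6 genes, Rarb, Rxrg, up to 12 family or chromosome 14 genes called (fewer than 5 passed, so the 5 with the lowest summed p), the 5 genes most correlated with their mean (1 of them is not reported here), the 3 nearest genes on each side of Rarb, Dlg5 and Rtraf. Family genes were found with blastn 2.17.0. Alternatives were RLE factors, no filter, DESeq2 1.42.0, other batch terms and leaving out each row. Intervals and the limit of 3 fragments cover counting error only.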

Additional observations from a re-analysis of the deposited data

How the results depend on the processing

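None of the 6 genes passed between regions within dKO under any of 11 alternatives. Counts of genes past the threshold moved more. In orbital, medial, dorsal and summed comparisons 7, 389, 4 and 5 genes passed, of which 0, 2, 0 and 0 were family or chromosome 14 genes outside the 6. With no filter the counts were 122, 565, 26 and 65 (10, 14, 6 and 12 in the region), with DESeq2 430, 1120, 62 and 359 (13, 15, 4 and 16), and with no prefix term 3, 156, 2 and 3 (1 in medial). With set as a replicate block they were 14, 662, 6 and 6 (7 in medial). Deviations of control and dKO rows of the same set correlated at 0.35 in set A, 0.01 in set B and 0.39 in set C over 18730 genes. The main fits did not treat the sets as pairs, although sets A and C had positive correlations. Leaving out each row gave 5 to 789, 47 to 403, 3 to 29 and 4 to 9 genes (0 to 12, 0 to 11, 0 to 6 and 0 to 2 in the region), with the 789 when the set B controls were left out. Without either the control or the dKO row of set A, 12 and 7 region genes passed in orbital tissue, 11 and 7 in medial, 6 and 3 in dorsal and 1 and 2 with regions summed. Leaving out set A in both genotypes, added after the data were seen, gave 7, 19, 5 and 4 genes (3, 3, 2 and 1 in the region). A window of 10 Mb around Rarb gave 3 region genes in medial tissue.

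Between regions within dKO (orbital minus dorsal, medial minus dorsal, medial minus orbital) 91, 392 and 3 genes passed. The counts were 339, 1169 and 197 with no filter, 321, 1299 and 145 with DESeq2, 10, 65 and 1 with no row block, 4, 52 and 3 without set A, and 4 to 123, 29 to 819 and 0 to 24 when a row was left out. The cause of these shifts was not tested. Limits are the 3 rows per genotype, the sharing of reads between copies, and the low counts of Gm3373 and Gm10340.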
